A study of Mus musculus with 8 samples.

Results

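Activity-regulated effector genes were read in whole brain of mice fasted for 17 h, against brain of fed mice, on 8 single-colour Agilent arrays with 4 arrays per group. The set holds 10 genes: Arc, Homer1, Bdnf, Nptx2, Vgf, Ptgs2, Dusp1, Dusp6, Btg2 and Gadd45b. They were taken by gene name from the scanner files, which gave 15 of the 39429 non-control probes on the array and 10 of its 30420 gene names. Homer1 had 5 probes, Nptx2 had more than 1, and the other 8 genes had 1 probe each. The labels give tissue and feeding state, and neither strain, sex and age nor the number of mice behind a sample are given in the sources used here. The p-values therefore cover only the scatter among these arrays, part of which may be technical.

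Immediate early genes are transcribed within minutes of a burst of synaptic input, when calcium entry activates kinases that act on the transcription factors CREB, SRF and MEF2. Some of the genes encode transcription factors, such as the Fos and Egr families. The genes described here are effectors, which act at the synapse (Arc, Homer1, Nptx2), are secreted (Bdnf, Vgf, and Nptx2 again), make lipid signals (Ptgs2) or shut signalling and growth down again (Dusp1, Dusp6, Btg2, Gadd45b). Several of the last group are also induced outside neurons by glucocorticoids, growth factors or cell stress.

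Fasted brain had less mRNA of Arc, the cytoskeletal protein that drives removal of AMPA receptors from synapses, by 1.52-fold, and less of Homer1 at the last of 3 probes to its short transcript, by 1.87-fold. Bdnf, the neurotrophin, was 1.23-fold lower and the dimmer of the Nptx2 probes 1.20-fold lower. Btg2, an antiproliferative cofactor of mRNA deadenylation, went the other way and was 1.62-fold higher in fasted brain. Vgf, Ptgs2, Dusp1, Dusp6 and Gadd45b did not pass the test. The test was limma's moderated comparison over all 26066 probes kept, with Benjamini-Hochberg adjustment and a threshold of 0.05.

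By probe, 4 of the 15 were lower and 1 was higher. Over all probes tested 8.55% were lower and 8.4% higher. By gene, taking the brightest probe of each, 2 of 10 were lower (Arc and Bdnf) and 1 was higher (Btg2), where 8.7% of 20119 genes were lower and 8.48% higher. With the replicate number as a block, the same 5 probes and 3 genes passed, and 8.15% of all genes were lower and 7.09% higher. The median difference, fasted minus fed on the log2 scale, was -0.11 over the 10 genes and -0.01 over all genes tested. Groups did not overlap at 5 of the 15 probes, as they did not at 24.8% of all probes.

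Homer1 holds a comparison within 1 gene, so its probes are shown first. The gene is known to make a long, constitutive scaffold, which forms multimers and ties metabotropic glutamate receptors to Shank and to intracellular calcium channels. It also makes a short form, Homer1a, which lacks the multimerising end and loosens that scaffold after activity. The array annotation assigns 3 probes to transcript variant S, the short one, and 2 to transcript variant L, the long one. All lie on the plus strand of chromosome 13 in mm9, the build of the array design. Shown are the 3 variant S probes in transcript order and the first variant L probe, since the contrast between them carries the Homer1 result.
Homer1 S, probe A_55_P2122789, chr13:94116595-94116654: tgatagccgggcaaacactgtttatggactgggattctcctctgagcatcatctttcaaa
Homer1 S, probe A_55_P1982122, chr13:94125924-94125983: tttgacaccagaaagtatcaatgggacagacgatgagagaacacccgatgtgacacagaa
Homer1 S, probe A_55_P1982121, chr13:94126009-94126068: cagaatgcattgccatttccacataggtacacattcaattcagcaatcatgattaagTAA
Homer1 L, probe A_66_P104134, chr13:94157507-94157566: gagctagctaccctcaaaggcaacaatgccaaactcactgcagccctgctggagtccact
Capitals in the last variant S probe mark a TAA stop triplet, which closes a reading frame that is otherwise open from the first base of the probe. The first 2 variant S probes start at positions 1036 and 1219 of their transcript and the last one at position 1304, only 85 bases after the one before it. The variant L probes lie 40.9 and 58.2 kb further along the chromosome than the first variant S probe. Whether the first 2 variant S probes also read the long transcript was not analysed here, because no transcript sequences were used.

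At the stop-containing probe, Homer1 variant S had -2.07, -1.90, -1.89 and -1.72 in fasted replicates 1 to 4, against -0.79, -1.33, -1.02 and -0.81 in fed replicates 1 to 4. These are scaled log2 levels, in which 0 is the array's own 75th percentile of signal, and levels of different probes are not comparable. Every fasted array was below every fed array. The means were -1.89 ± 0.14 in fasted brain and -0.99 ± 0.25 in fed brain (SD, n = 4 each), a log2 difference of -0.91 ± 0.13 (SE) with an adjusted p of 0.0045 by limma. The difference was -0.92 on slide 1 and -0.89 on slide 2, and leaving out single arrays moved the adjusted p between 0.0043 and 0.0155.

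The 2 other variant S probes gave smaller differences that did not pass. Probe A_55_P2122789 had 0.51, 0.55, 0.55 and 0.57 in fasted brain, against 0.99, 0.58, 0.83 and 0.78 in fed brain, without overlap, and differed by -0.25 ± 0.08 (adjusted p = 0.0631, limma). Probe A_55_P1982122 had 0.14, 0.17, 0.20 and 0.15 in fasted brain, against 0.62, 0.17, 0.52 and 0.38 in fed brain, and differed by -0.26 ± 0.09 (adjusted p = 0.0865, limma). At both, fed replicate 2 lay close to the fasted arrays. Without fed replicate 2 both passed limma's test, with adjusted p of 0.0169 at a difference of -0.32 and 0.0174 at -0.34. Neither passed with any other single array left out. The adjusted p rose to 0.136 and 0.170 (limma) without fasted replicate 1.

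The variant L probes read 0.26, 0.20, 0.19 and 0.13 in fasted brain, against 0.52, 0.17, 0.39 and 0.23 in fed brain, at A_66_P104134. The difference was -0.13 ± 0.08 (adjusted p = 0.267, limma) and the groups overlapped. The brighter probe A_55_P1982111, which represents the gene in gene counts, had 1.88, 1.96, 1.88 and 1.87 in fasted brain, against 2.10, 1.81, 1.93 and 1.98 in fed brain. Its difference of -0.06 ± 0.06 did not pass (adjusted p = 0.545, limma), with a 95% confidence interval of -0.20 to 0.08. A fall of the size seen at the stop-containing variant S probe lies outside that interval.

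A ratio within each array sets the variant S probes beside the variant L probes. It sets a variant S probe over the mean of the variant L probes in log2, and since it was chosen after the probe differences had been seen it is given as a description, with no test. For the stop-containing probe the log2 ratio was -2.94 ± 0.17 in fasted brain, between -3.14 and -2.72, and -2.13 ± 0.17 in fed brain, between -2.32 and -1.91 (SD, n = 4 each). The groups differed by -0.81. The ratio was also lower for the 2 other variant S probes, by -0.15 at A_55_P2122789 and by -0.16 at A_55_P1982122. Whether these 2 probes also read the long transcript was not analysed, so their ratios may not be of short over long. In each of the 3 ratios the fasted arrays lay below all fed arrays.

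**Figure D1:**
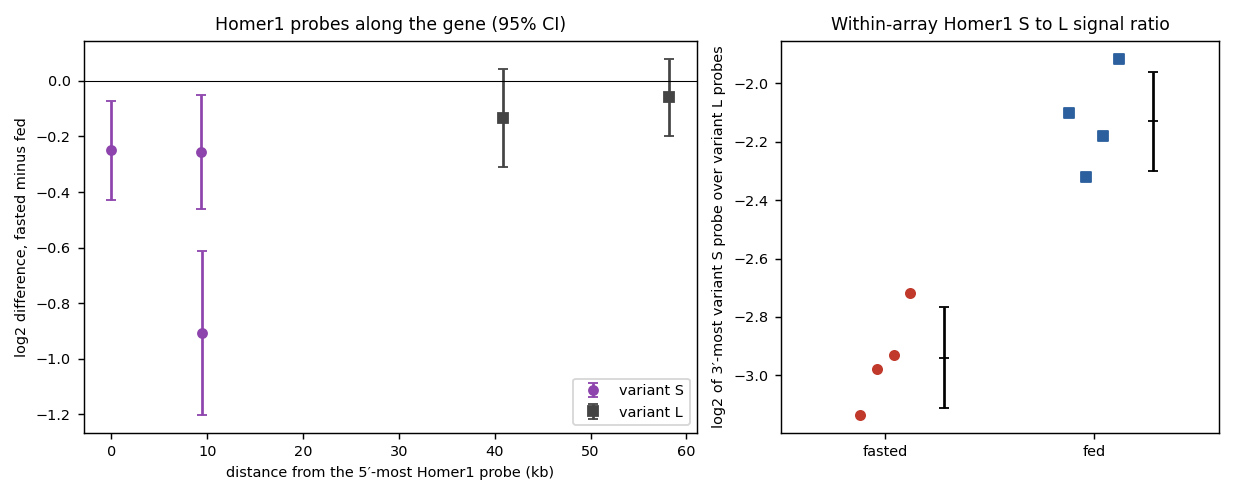
Left, log2 difference (fasted minus fed, with 95% confidence interval) of the 5 Homer1 probes by distance from the first probe in kb, lowest at the stop-containing probe. Right, log2 ratio of that probe over the mean of the variant L probes on each array, with mean and SD beside the points, where the fasted ratios lie between -3.14 and -2.72 and the fed ratios between -2.32 and -1.91.

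Arc was read by 1 probe, A_55_P2021810, on the minus strand at chr15:74499592-74499651 (mm9). It had 3.19, 3.49, 3.62 and 3.79 in fasted replicates 1 to 4, against 4.18, 4.005, 4.20 and 4.12 in fed replicates 1 to 4. All fasted arrays were below all fed arrays, and the fasted ones were spread more widely, with fasted replicate 1 the lowest. Arc averaged 3.52 ± 0.26 in fasted brain and 4.13 ± 0.09 in fed brain (SD, n = 4 each), a log2 difference of -0.60 ± 0.12 (SE) with an adjusted p of 0.0142 by limma. The difference was -0.75 on slide 1 and -0.46 on slide 2. Leaving out single arrays moved its adjusted p between 0.0116 and 0.0393.

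The genes whose centred profiles over the 8 arrays lay nearest to that of Arc were Hpn, at a root mean square distance of 0.063 log2 units, Ecm2 at 0.090 and Egr4 at 0.098. Hpn encodes a transmembrane serine protease and was lower in fasted brain by -0.65, Ecm2 an extracellular matrix protein, lower by -0.49. Egr4 is an activity-induced zinc finger transcription factor and differed by -0.47 (adjusted p = 0.00879, limma). These 3 genes were chosen for their likeness to a profile that includes the group difference, so their own differences add no test.

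Nptx2, the secreted pentraxin Narp that clusters AMPA receptors at excitatory synapses on interneurons, gave different calls at its 2 probes on chromosome 5. Probe A_55_P2147696 (chr5:145317727-145317786, mm9) had -3.45, -3.29, -3.39 and -3.33 in fasted brain, against -3.05, -3.15, -3.20 and -3.03 in fed brain. The groups did not overlap, and the difference was -0.26 ± 0.05 (adjusted p = 0.0161, limma). With a normexp background correction it did not pass, at an adjusted p of 0.066. The brighter probe A_52_P187058 (chr5:145317905-145317964, mm9) had -1.06, -0.96, -0.84 and -0.84 in fasted brain, against -0.74, -0.93, -0.72 and -0.54 in fed brain. Those groups overlapped, and the difference of -0.19 ± 0.09 did not pass (adjusted p = 0.174, limma). Both probes were below 0 in difference, and the mean of them passed at -0.23 (adjusted p = 0.0476, limma).

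Bdnf encodes brain-derived neurotrophic factor, which is released at active synapses and signals through TrkB. Its probe A_55_P2036303 (chr2:109566961-109567020, mm9) had -0.64, -0.66, -0.51 and -0.62 in fasted brain, against -0.32, -0.52, -0.18 and -0.23 in fed brain. Fed replicate 2 lay just within the fasted range, and the 3 other fed arrays were above it. Bdnf differed by -0.30 ± 0.08 with an adjusted p of 0.0341 (limma), and by -0.23 on slide 1 and -0.36 on slide 2. The call was lost, at adjusted p between 0.0714 and 0.0836, without fasted replicate 1, 2 or 4 or without fed replicate 1, 3 or 4, and at 0.0747 without the filter on dim probes.

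Vgf encodes a secreted precursor of neuropeptides that act on synaptic strength and energy balance, and it was the only member of the synaptic and secreted genes above 0 in difference. Its probe A_55_P2085060 (chr5:137509153-137509212, mm9) had 5.09, 5.02, 5.18 and 4.94 in fasted brain, against 4.97, 4.73, 4.99 and 4.82 in fed brain. The groups overlapped, and the difference of 0.18 ± 0.07 did not pass (adjusted p = 0.135, unadjusted p = 0.0412, limma). Its 95% confidence interval ran from 0.01 to 0.35.

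Ptgs2 encodes cyclooxygenase-2, the inducible enzyme that makes prostaglandin precursors and is present in excitatory neurons. Its probe A_51_P254855 (chr1:151954744-151954803, mm9) was printed on 10 spots per array, whose SD on an array was 0.034 to 0.138 log2 units. It had -2.73, -2.74, -2.66 and -2.58 in fasted brain, against -2.69, -2.83, -2.35 and -2.69 in fed brain. Fed replicate 3 stood above the other 7 arrays. The difference was -0.04 ± 0.10 (adjusted p = 0.832, limma), and 0.06 without fed replicate 3.

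**Figure D2:**
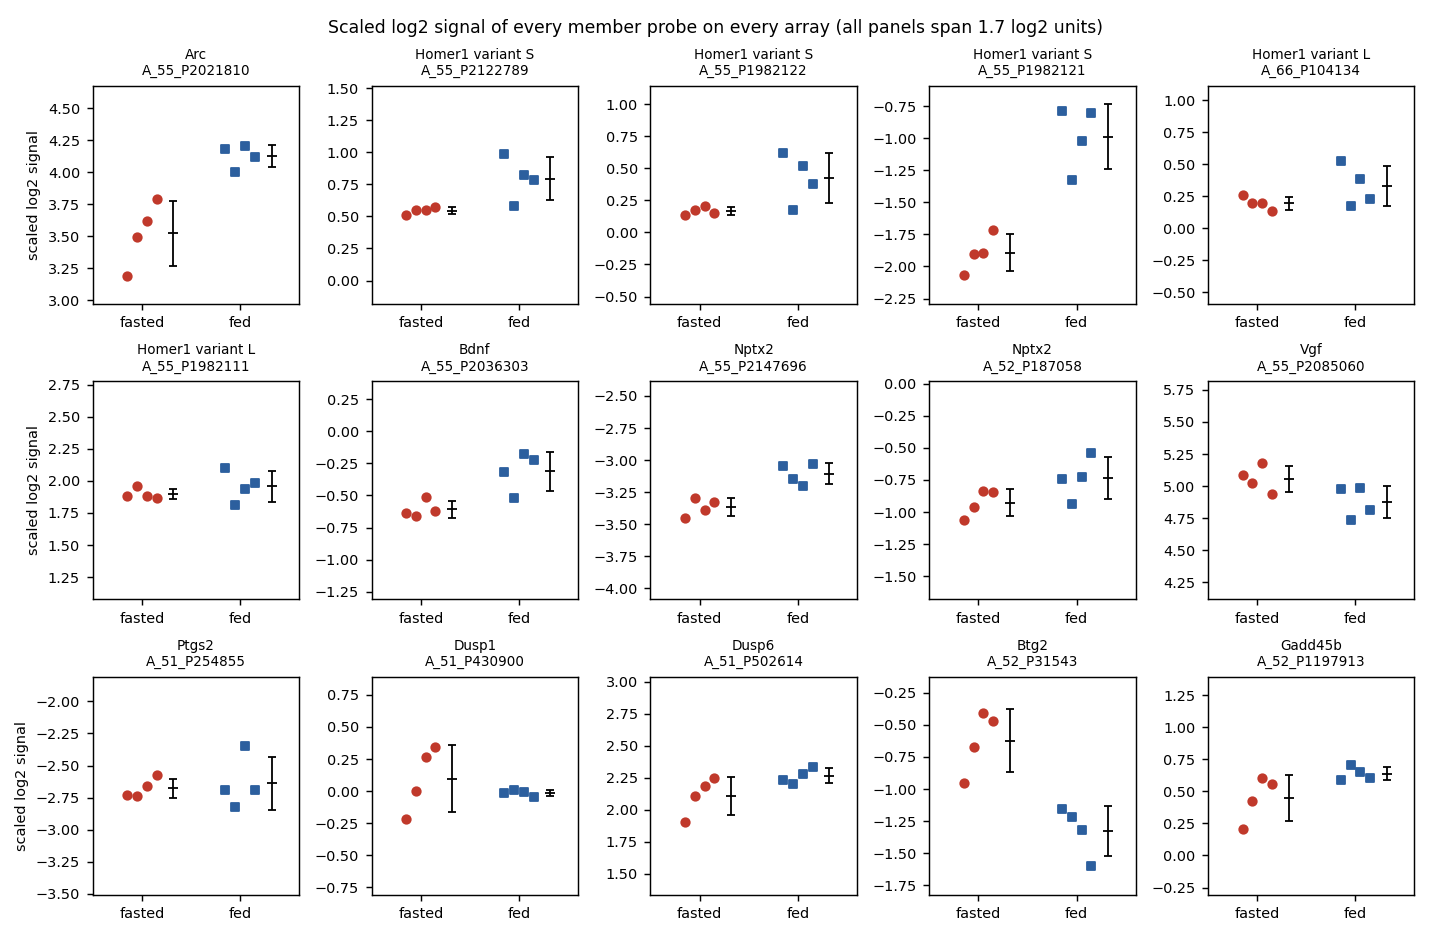
Scaled log2 level of the 15 member probes on each array. Points are arrays in replicate order, with fasted left of fed in each panel, and bars are the group mean and SD (n = 4 each). Arc, the Homer1 probes A_55_P1982121 and A_55_P2122789 and the Nptx2 probe A_55_P2147696 have all fasted arrays below all fed arrays. Btg2 has all fasted arrays above all fed arrays. Groups do not overlap at 24.8% of all probes.

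Among the feedback genes Btg2 was the one that passed. BTG2 recruits the CCR4-NOT deadenylase, slows cell division and is a known target of p53. Its probe A_52_P31543, on the minus strand at chr1:135972094-135972153 (mm9), had -0.95, -0.67, -0.40 and -0.47 in fasted brain, against -1.16, -1.22, -1.32 and -1.60 in fed brain. Every fasted array was above every fed array. Btg2 averaged -0.62 ± 0.25 in fasted brain and -1.32 ± 0.19 in fed brain (SD, n = 4 each), a log2 difference of 0.70 ± 0.14 (SE) with an adjusted p of 0.014 (limma). The fold was 1.62, with a 95% confidence interval of 1.30 to 2.03. Leaving out single arrays moved the adjusted p between 0.012 and 0.0381.

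The size of the Btg2 difference varied by slide, at 0.38 on slide 1 and 1.02 on slide 2. The term for that change had an unadjusted p of 0.0105 and an adjusted p of 0.9999 in limma, and 0 of the 26066 probes passed for it. The nearest profiles to that of Btg2 belonged to Ppil6, a peptidylprolyl isomerase-like gene (distance 0.134, difference 0.62), Foxd1, a forkhead transcription factor (0.142 and 0.62), and Kdm4d, a histone demethylase (0.143 and 0.54). These distances were larger than those found for Arc.

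Dusp1 and Dusp6 are dual-specificity phosphatases that switch off MAP kinases, Dusp1 in the nucleus and Dusp6 mainly against ERK in the cytoplasm. Dusp1, at probe A_51_P430900, had -0.22, 0.00, 0.26 and 0.35 in fasted brain, against -0.02, 0.01, -0.01 and -0.04 in fed brain. The fed arrays were nearly alike (SD 0.02, n = 4) while the fasted arrays lay on both sides of them (SD 0.26, n = 4). Its difference of 0.11 ± 0.12 did not pass (adjusted p = 0.54, limma), and it was -0.11 on slide 1 and 0.33 on slide 2. The term for that change of the Dusp1 difference between slides had an unadjusted p of 0.0083 and an adjusted p of 0.9999 in limma.

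Dusp6, at probe A_51_P502614 (chr10:98729985-98730044, mm9), had 1.90, 2.11, 2.18 and 2.25 in fasted brain, against 2.24, 2.20, 2.28 and 2.34 in fed brain. The groups overlapped, with fasted replicate 1 well below the others. The difference was -0.15 ± 0.07 (adjusted p = 0.19, limma). Gadd45b, a stress and activity gene linked to DNA demethylation at neuronal promoters, was read at A_52_P1197913 (chr10:80394367-80394426, mm9). It had 0.21, 0.43, 0.60 and 0.56 in fasted brain, against 0.59, 0.70, 0.65 and 0.61 in fed brain. Fasted replicate 1 was again the lowest, the groups overlapped slightly, and the difference of -0.19 ± 0.08 did not pass (adjusted p = 0.163, limma).

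**Figure D3:**
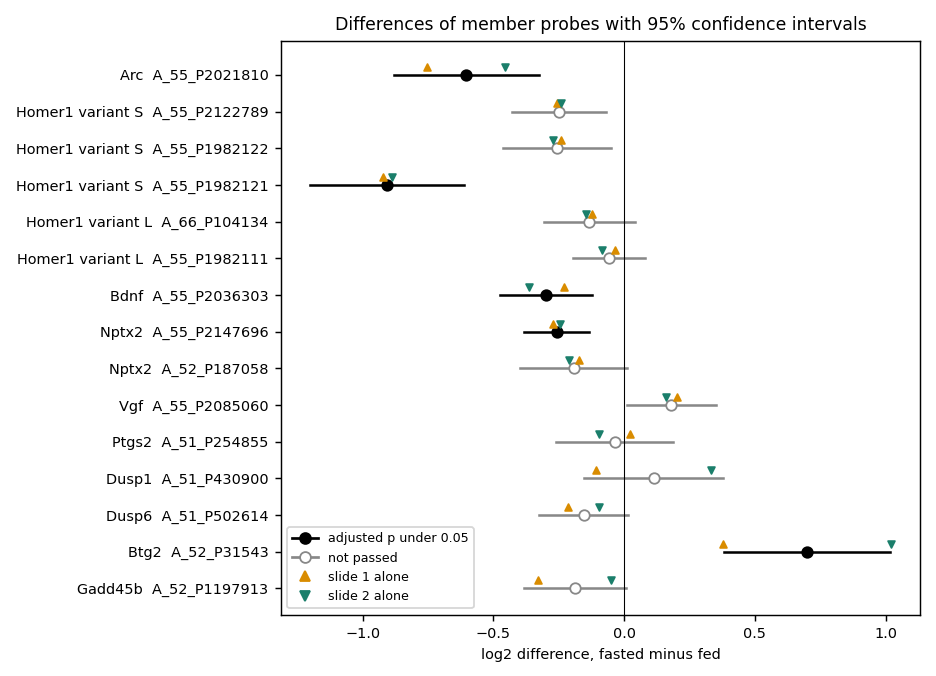
Log2 difference, fasted minus fed, of each member probe with its 95% confidence interval. Filled points passed limma's test and triangles give each slide alone. Arc, the Homer1 probe A_55_P1982121, Bdnf and the Nptx2 probe A_55_P2147696 lie below 0 and Btg2 above it, and for Btg2 and Dusp1 the slides are far apart.

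The members differed in which array was extreme. Fasted replicate 1 was the lowest fasted array for 6 of the 10 genes (Arc, Nptx2, Dusp1, Dusp6, Btg2 and Gadd45b). Fasted replicate 3 was the highest for 5 of the 10 (Bdnf, Nptx2, Vgf, Btg2 and Gadd45b), and fasted replicate 4 for 4 (Arc, Ptgs2, Dusp1 and Dusp6). Fed replicate 2 was the lowest fed array for 7 genes (Arc, Homer1, Bdnf, Nptx2, Vgf, Ptgs2 and Dusp6). The residual SD between arrays of a group was 0.222 for Btg2, 0.204 for the stop-containing Homer1 probe, 0.191 for Arc and 0.183 for Dusp1, where the median over all probes was 0.081. The members with the widest spread thus included those with the largest differences.

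Promoter sequences were set beside these values for the motifs of activity-regulated transcription. RefSeq entries on GRCm38.p6, covering 250 bases before to 50 bases after the start, were found for 7 of the 10 genes and gave 14 promoters, 7 of them for Bdnf. Arc, Nptx2 and Vgf were not in that table. Shown are the promoters of Dusp1 and Btg2, which carry the full letters of the cyclic AMP response element (CRE) bound by CREB. The first Homer1 promoter is shown beside them and carries half-sites only. The third Bdnf promoter and that of Ptgs2 also carry a half-site only and are not shown. Capitals mark TGACGTCA in Dusp1 and Btg2 and separate half-sites TGACG in Homer1 and Dusp1.
Homer1, chr13:93303507-93303806, plus strand: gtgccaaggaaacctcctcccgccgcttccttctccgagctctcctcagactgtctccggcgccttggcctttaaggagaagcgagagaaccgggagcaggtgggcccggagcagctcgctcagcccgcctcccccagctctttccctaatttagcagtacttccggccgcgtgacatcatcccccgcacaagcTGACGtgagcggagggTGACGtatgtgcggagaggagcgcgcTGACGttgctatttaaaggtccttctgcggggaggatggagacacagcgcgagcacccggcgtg
Dusp1, chr17:26508423-26508722, minus strand: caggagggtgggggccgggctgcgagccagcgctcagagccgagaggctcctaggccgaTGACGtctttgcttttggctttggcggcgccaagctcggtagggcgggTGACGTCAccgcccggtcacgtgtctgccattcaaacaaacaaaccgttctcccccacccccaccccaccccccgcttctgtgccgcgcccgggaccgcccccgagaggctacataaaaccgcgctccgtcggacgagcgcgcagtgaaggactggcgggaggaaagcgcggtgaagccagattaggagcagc
Btg2, chr1:134079106-134079405, minus strand: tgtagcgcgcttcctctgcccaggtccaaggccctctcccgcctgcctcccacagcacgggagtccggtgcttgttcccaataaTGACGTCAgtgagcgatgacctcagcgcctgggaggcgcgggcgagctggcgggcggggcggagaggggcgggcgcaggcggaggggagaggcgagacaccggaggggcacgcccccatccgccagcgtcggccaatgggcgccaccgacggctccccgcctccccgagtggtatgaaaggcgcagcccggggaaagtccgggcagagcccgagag
The full CRE letters TGACGTCA stood 143 bases before the start in Dusp1 and 166 bases before it in Btg2. Both strands were searched, and 2 of the 14 promoters held it, against 1.79% of 32851 mouse promoters of the same length. The half-site TGACG, which overlaps the full element on both strands, was in 5 of the 14 promoters and in 20.8% of all. It stood in Homer1 at 56, 40 and 14 bases before the start, and it was also in the third Bdnf promoter, in Ptgs2, in Dusp1 and in Btg2. The letters TATAAA were in the Gadd45b promoter only, 46 bases before the start, and in 13.6% of all promoters. The Egr site GCGTGGGCG and the CArG box of SRF, searched on both strands, were in 0 of the 14 and in 0.612% and 1.63% of all. A match of letters is a description of the sequence. Dusp1 and Btg2 share the full element, and only Btg2 passed the test between fasted and fed brain.

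The transcription factor families induced with these effectors were measured on the same arrays. Of 6 Egr and Nr4a genes tested 5 were lower in fasted brain and 0 higher, with a median log2 difference of -0.41, where all genes had -0.01. With the replicate block 4 were lower, Nr4a1 no longer passing (adjusted p = 0.052, limma), and 3 were lower without fasted replicate 2 or without fed replicate 4. Nr4a2, an orphan nuclear receptor, differed by -0.35, and the zinc finger factors Egr4, Egr1 and Egr2 by -0.47, -0.39 and -1.05. Of 6 Fos and Jun genes tested 2 were lower and 0 higher, namely Fosb at -0.81 and Fosl2 at -0.72, with a list median of -0.34, and 2 to 3 were lower with single arrays left out. Of 49 other activity-regulated effectors 8 were higher and 7 lower, with a median of -0.03. Leaving out single arrays gave 3 to 5 higher and 2 to 7 lower. The lower count was 2 without fasted replicate 1, and next smallest, at 4, without fasted replicate 2. Tiparp, a mono-ADP-ribosyltransferase, was lower by -0.50 and Baz1a, a chromatin remodelling subunit, by -0.82. Plat, tissue plasminogen activator, was higher by 0.29 and the zinc finger gene Klf6 by 0.23.

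Of 22 Homer and Arc binding partners 2 were higher and 3 lower (median -0.05), beside shares of 8.48% and 8.7% over all genes. With the replicate block 1 was higher and 2 lower, and leaving out single arrays gave 1 higher and 1 to 2 lower. Ryr1, a calcium release channel that binds Homer, was lower by -0.34 and the scaffold Shank3 by -0.15. The scaffold Dlgap1 was higher by 0.22 at its brightest probe and by 0.02 and 0.05 at its other probes. Wasf1, an actin regulator, was higher by 0.12 (adjusted p = 0.0747 with the replicate block, limma). Of 10 pentraxin and AMPA receptor genes Gria1, an AMPA receptor subunit, was the 1 that passed, higher by 0.18. With the replicate block 1 was higher and 1 lower.

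Of 13 genes of BDNF receptors and processing 2 were higher, Plat at 0.29 and the sorting receptor Sort1 at 0.20, and 1 was lower, the p75 receptor Ngfr at -0.16. Sort1 gave 0.01 and -0.08 at its other probes, and the call on Ngfr was lost with the replicate block (adjusted p = 0.057, limma). With single arrays left out 2 to 3 genes of that list were higher and 0 to 1 lower. Of 14 granin and prohormone processing genes 3 were higher and 1 lower, with a median of 0.09. Leaving out single arrays gave 0 to 1 higher and 0 to 1 lower, by limma. Scg2 and Chgb, granins of dense core vesicles like Vgf, were higher by 0.17 and 0.11, and Pam, the peptide amidating enzyme, by 0.14. Pcsk1, a prohormone convertase, was lower by -0.28. The block ended the calls on Scg2 (adjusted p = 0.0878, limma) and on Chgb (adjusted p = 0.0709, limma).

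Of 15 genes of prostaglandin synthesis and receptors 2 were higher and 2 lower, with a median of -0.06, and 1 to 2 passed in each direction with single arrays left out. Ptgis, prostacyclin synthase, was higher by 0.53 at its brightest probe and gave -0.18 at its other probe. Slco2a1, a prostaglandin transporter, was higher by 0.25. The receptor gene Ptger1 was lower by -0.55 and Hpgds, a prostaglandin D synthase, by -0.24.

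Some relatives of the feedback members passed in each direction, where over all genes 8.48% were higher and 8.7% lower. Of 18 other dual-specificity phosphatases 2 were higher, Dusp10 at 0.45 and Dusp23 at 0.36, and 2 lower, Dusp11 at -0.63 and Dusp14 at -0.30. Of 17 relatives of BTG and GADD45 and targets of p53 there were 3 higher and 1 lower (median 0.04). Tob1, an antiproliferative relative of Btg2, was higher by 0.33, and the sestrins Sesn1 and Sesn2 by 0.20 and 0.24. Gadd45a was lower by -0.28. With single arrays left out 3 were higher and 0 to 1 lower. Of 40 regulators in the CREB, SRF, MEF2 and MAP kinase pathways 3 were higher and 5 lower (median 0.01). With the replicate block 3 were higher and 3 lower, and leaving out single arrays gave 3 to 4 higher and 3 to 5 lower. The kinase Camk4 was higher by 0.30 and the calcineurin regulator Rcan2 by 0.40, and Hdac5, a repressor of MEF2, was lower by -0.22. Srf was lower by -0.30 at its brightest probe, with 0.07 at its other probe.

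**Figure D4:**
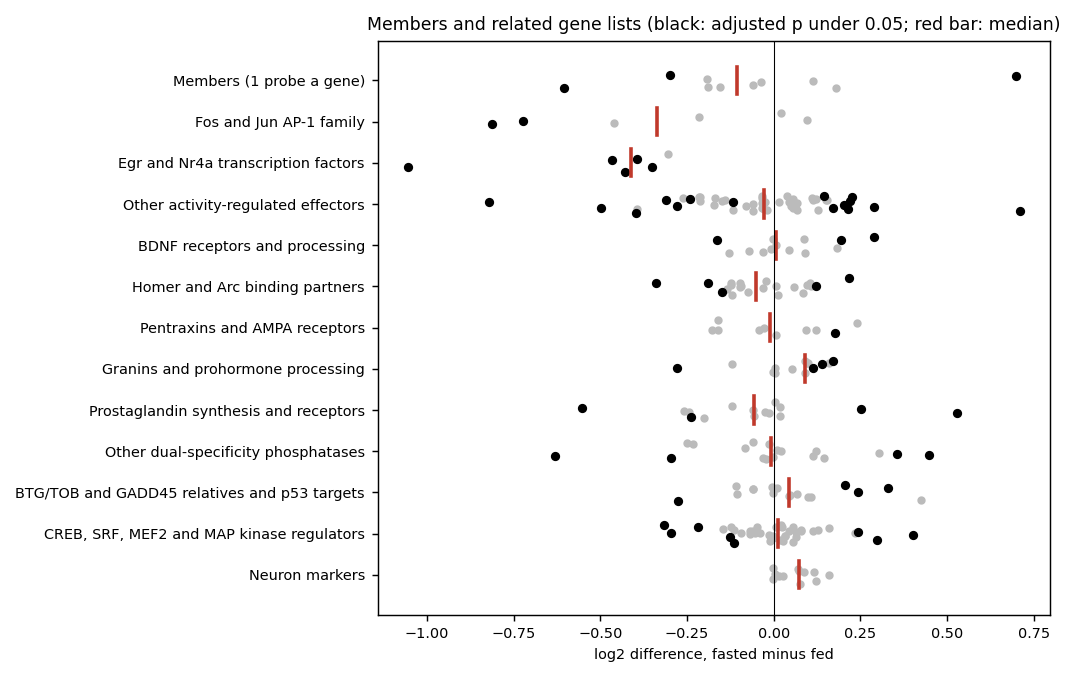
Log2 differences, fasted minus fed, of the members, of the genes in each list of related genes and of neuron markers, with passing genes in black and the median as a red bar. The Egr and Nr4a list has a median of -0.41 and the Fos and Jun list of -0.34, and the other lists of related genes have medians from -0.06 to 0.09.

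Between 24567 and 27220 probes were well above background per array, no spot was saturated, and all 15 member probes were well above background on all 8 arrays. Across probes, the mean correlation of an array with the others of its group was 0.995 to 0.997. All 12 neuron markers were tested and 0 passed in limma (1 passed with the replicate block), with a median of 0.07. Their summed scaled signal was 265 to 280 in fasted brain and 258 to 270 in fed brain. Of 8 microglia markers 5 were lower in fasted brain, with sums of 49.6 to 54.0 against 51.8 to 56.3 in fed brain, and of 8 oligodendrocyte markers 3 were lower, with sums of 112 to 128 against 123 to 138. With single arrays left out 2 to 4 microglia markers and 1 to 3 oligodendrocyte markers were lower. Of 8 astrocyte markers 2 were higher and 1 lower, with sums of 58.4 to 61.3 against 51.4 to 54.8. Of 10 endothelium and pericyte markers 3 were higher and 1 lower, and of 9 choroid plexus and ependyma markers 1 was higher and 2 lower. Over all genes 8.48% were higher and 8.7% lower. Of blood, striatum, cerebellum and pituitary markers 0 passed in the main fit. With the replicate block 1 blood marker was lower, and with the slide block 1 striatum and 1 pituitary marker were lower. Of 8 cerebellum markers 6 were tested, since Cbln3 and Gabra6 were not well above background on at least 4 arrays. How much cerebellum the samples held was not tested. The 2 pituitary markers tested had sums of 0.62 to 0.75 in fasted brain against 0.77 to 0.84 in fed brain. Of 8 hippocampal markers 1 was higher, with sums of 13.3 to 14.3 against 11.1 to 12.4, and of 9 cortical markers 1 was higher and 1 lower. The part of these in the member differences was not tested, and in whole brain fewer cells of a type and less RNA per cell cannot be told apart. Fasted samples were always hybridised at positions 1 and 3 and fed samples at 2 and 4, so that position and fasting cannot be told apart either.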

How the data were processed

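Cy3-labelled cRNA was made from 0.1 ug of whole brain RNA for each of 4 fasted and 4 fed samples, per the labels' protocols. Spot brightness was deposited as an intensity, which the authors obtained with Agilent Feature Extraction. The file headers give version 11.0.1.1 for its grid placement, and the submitters' processing notes name version 10.10.1.1 of the software. A deposited table of the whole series gives linear ratios against a baseline that is unknown here, and served only as an alternative. Its scale and direction were settled by setting it against the scanner values. Column medians of these deposited ratios were 0.970, 0.993, 0.973 and 0.987 in fasted brain (replicates 1 to 4), against 0.987, 1.02, 0.991 and 1.02 in fed brain.

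Processed signals were taken to log2 and centred by subtracting each array's 75th percentile (intensities of 1651 to 1944). Controls and outlier spots, 128 to 217 per array, were removed before averaging the spots of each probe. Probes well above background on at least 4 arrays were kept, 26066 in all. A gene took its brightest kept probe. Accessions of 27421 probes matched the RefSeq table of GRCm38.p6, and the design's coordinates are mm9, per the file headers. The number of arrays limits the precision.

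Groups came from the sample titles. Fasted minus fed was tested two-sided by lmFit and eBayes (limma 3.58.1, R 4.3.3) with Benjamini-Hochberg adjustment over all kept probes, a procedure tested on simulated data. Members and lists were chosen with earlier results of these data known. Every member probe was named, with up to 4 genes of smallest p per related list and the 3 profiles nearest to Arc and to Btg2. After removing group means, same-numbered fasted and fed arrays correlated at 0.18 to 0.29 in the 4 pairs. Such arrays also share a slide and neighbouring positions, so whether the replicate numbers pair the samples was not settled. The main test was unpaired. The block on replicate number was an alternative, as were the dim-probe filter, background correction, normalization, slide and left-out arrays.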

Additional observations from a re-analysis of the deposited data

Results flagged for a closer look

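For the Homer1 variant L probe A_55_P1982111, fasted replicate 2 had a scaled log2 level of 1.96 and stood apart from the other 3 fasted arrays, whose mean was 1.88. The gap took up 0.841 of the range of the 4 arrays and was past Dixon's 95% limit for 4 samples. This was 1 of 30 groups examined, and chance flags about 1 in 20.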

How the results depend on the processing

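With the replicate block the 5 member probes that passed still passed and 0 calls changed. By gene 2 were lower and 1 higher, beside 1639 lower and 1426 higher over all genes. Without the filter on dim probes 1 member gene was lower, and over all genes 1034 were lower and 1006 higher, against 1751 and 1706 with it. With normexp background correction 1190 genes were lower and 1065 higher. Within slide 1 alone and within slide 2 alone 0 member genes and 0 genes of all passed in limma in either direction, with 4443 and 3043 genes at an unadjusted p under 0.05. With the mean over a gene's probes 4 member genes were lower, since Homer1 (-0.32, adjusted p = 0.0292, limma) and Nptx2 passed too. The Homer1 mean pools 3 variant S probes (-0.25, -0.26 and -0.91) with 2 variant L probes (-0.13 and -0.06). Of these only the stop-containing variant S probe, at -0.91, passed on its own in the main fit. Leaving out single arrays gave 1 to 2 member genes lower, and over all genes 1058 (without fed replicate 2) to 1543 lower and 1092 (without fasted replicate 1) to 1415 higher. The difference turned its sign for Ptgs2 within slide 1 (0.024) and without fed replicate 3 (range -0.099 to 0.060 over single arrays left out), and for Dusp1 within slide 1 (-0.11), none of them passing in either fit. The Homer1 ratio at the stop-containing probe was -0.64 with normexp, -0.80 with quantile normalization and -0.88 to -0.74 with single arrays left out. Of 310 differences of members recomputed under the alternatives 283 kept their direction and their side of the threshold. That count is no measure of robustness, since 10 of the 15 member probes had not passed and staying unpassed counts as kept. The deposited table and the kept outlier flags also changed member values little. For Bdnf, which had passed, the call was lost under 9 of 21 alternatives. The causes of these changes were not tested, and a slide alone also holds fewer arrays. Every member probe was well above background on every array, yet normexp moved the stop-containing Homer1 probe to -0.74 and the Nptx2 probe A_55_P2147696 to -0.19, which then did not pass (adjusted p = 0.066, limma).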
